A study of Mus musculus with 4 samples.

Results

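The machinery that feeds new proteins into the endoplasmic reticulum (ER), cuts off their signal peptides and attaches their first sugars was followed as 33 genes, picked by symbol from the 55471 genes counted in each library. They fall into 28 subunits that sit in or on the ER membrane and 5 cytosolic proteins of the signal recognition particle (SRP). All 33 symbols were found and all 33 genes passed the filter on low counts. RNA bound to HA-tagged ribosomes was pulled down from micro-dissected corpus callosum, a large white matter tract of the brain, and sequenced. Cuprizone is a copper chelator that kills oligodendrocytes and strips myelin when eaten. The cuprizone group (2 libraries) came from mice given it as 0.2% of chow by weight, and the mock group (2 libraries) from mice of matched age on a normal diet. All mice were male, 8 to 9 weeks old, and carried GFAP-Cre+/- and Rpl22HA/wt, so Cre acts where the GFAP promoter is or has been active and 1 Rpl22 allele can gain the tag. The sample labels give 3 weeks and batch 1 for all 4 libraries, whereas the series' design text names 5, 5.5 and 7 weeks; the labels' time is used here. The labels call the libraries biological replicates without saying how many animals each holds, so p-values measure the spread between libraries.

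A ribosome that starts on a secreted or membrane protein is caught by the SRP and handed to its receptor on the ER. The chain then passes through the Sec61 channel, helped by the translocon-associated protein complex (TRAP), TRAM proteins and Sec62 with Sec63. Signal peptidase cuts off the signal peptide, and the oligosaccharyltransferase (OST) transfers a glycan to asparagines. Astrocytes secrete lipid carriers, matrix proteins and protease inhibitors, and all of these pass through this gate.

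The libraries held 21834814 and 23822620 counts in cuprizone and 22109536 and 21209517 in mock. A count of 0 allows a level of up to 0.126 to 0.141 CPM (counts scaled to the library total), counting error only. Of 15 astrocyte markers, all 15 had counts in every library, with summed levels of 6250 and 7096 CPM in cuprizone against 10255 and 9882 CPM in mock. The 10 neuron markers summed to 14748 and 14731 CPM in cuprizone and to 12729 and 13265 CPM in mock, and the 10 oligodendrocyte markers to 10517 and 13629 CPM in cuprizone and 13188 and 15315 CPM in mock. The 10 microglial markers summed to 17.9 to 20.1 CPM in cuprizone and 29.3 to 42.4 CPM in mock, with Itgam at 0 in all 4 libraries, and the 5 endothelial markers to at most 3.23 CPM in any library, with Cdh5 at 0. The 5 markers of oligodendrocyte precursors summed to 54.5 and 72.1 CPM in cuprizone against 87.4 and 93.4 CPM in mock. The 6 of fibroblasts and pericytes summed to 16.4 and 16.2 CPM in cuprizone against 52.6 and 27.5 CPM in mock. The astrocyte, microglial, precursor, and fibroblast and pericyte sums were thus lower in cuprizone, as the membrane members were. The median log2 fold was -0.44 for astrocyte, -0.20 for oligodendrocyte and 0.09 for neuron markers, against -0.49 for the membrane members. Among the scarcer sets it was -3.30 for 9 tested microglial, -1.21 for 5 precursor and -1.71 for 4 tested fibroblast and pericyte markers. For 4 tested ependymal and choroid plexus markers it was 0.07, and for the 1 tested endothelial marker 0.28. The 5 ependymal and choroid plexus markers summed to 29.2 and 69.3 CPM in cuprizone and 154 and 40.0 CPM in mock. Pulled-down RNA thus held RNA known from neurons and oligodendrocytes as well. Gfap had 385 and 451 CPM in cuprizone against 963 and 870 CPM in mock, a log2 fold of -1.20 (SE 0.15) with an edgeR adjusted p of 0.0838. Over the alternative edgeR settings this p ran from 0.00681 without a filter to 0.335 without mock replicate 2. It was past the threshold without a filter, with the filter at mean CPM 1, with bias-adjusted dispersions and without either cuprizone library, and Gfap was also called by DESeq2 (adjusted p = 2.01e-10) and limma-voom (adjusted p = 0.023). Rpl22, the tagged gene, had 42.2 and 27.5 CPM in cuprizone and 40.6 and 40.1 CPM in mock, a log2 fold of -0.29 (SE 0.28).

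In the cuprizone libraries most membrane subunits stood lower, and the SRP proteins lay closer to mock. Of the 28 membrane members, 26 had negative log2 folds, against 49.9% of all tested genes and 50.4% of the 6833 genes at least as abundant as the least abundant member (23.2 CPM), and their median was -0.49. Of the 5 SRP proteins, 4 had negative log2 folds as well, but their median was -0.10, and over all 15816 genes tested it was 0.00. The 9 lowest folds, between -1.03 and -0.75, were those of 5 OST subunits (Rpn1, Tusc3, Rpn2, Ddost and Ostc), 3 TRAP subunits (Ssr4, Ssr2 and Ssr1) and the signal peptidase subunit Sec11a. Sec61b, Sec61g, Ssr3, Stt3b and Srprb lay near 0, and Srp72 was the member with the highest fold, 0.50 (SE 0.16). In such bulk samples, fewer cells of a type and less RNA per cell cannot be told apart. With only pulled-down RNA sequenced, the amount of a transcript and its share on tagged ribosomes cannot be told apart either. Neurons and oligodendrocytes also make secreted and membrane proteins, and the summed astrocyte markers stood lower in cuprizone as well. The part of any of these cells in the folds was not tested.

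No member passed the edgeR quasi-likelihood test after adjustment over all genes, which called 0.0822% of all genes, 0.0506% lower and 0.0316% higher. Among the 6833 abundant genes it called 0.176%, 0.102% lower and 0.0732% higher. The adjusted p of the members ran from 0.122 for Rpn1 to 0.998 for Ssr3. At an unadjusted p under 0.05, 14 members were lower, against 7.04% of all tested genes and 11.2% of the 6833 abundant ones. Of the 15 astrocyte markers, 7 were lower and 0 higher at that level. For the 10 oligodendrocyte markers these counts were 4 and 1, and for the 10 neuron markers 2 and 1. At the same level 1 member, Srp72, was higher, against 5.73% of all genes and 8.39% of the abundant ones. DESeq2 called 8 members lower and 0 higher, against 2.85% and 1.67% of all genes, or 5.39% and 2.61% of the abundant ones. These were the 5 OST and 3 TRAP subunits named above. Limma-voom called 0 members, against 0.24% of all genes lower and 0.0569% higher, or 0.556% and 0.132% of the abundant ones. Both cuprizone libraries lay below both mock libraries in 19 members, against 18.9% of all genes and 21.1% of the abundant ones, and above them in 2, Srp72 and Ssr3, against 25.7% and 30.3%. In the other 12 the groups overlapped.

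**Figure D1:**
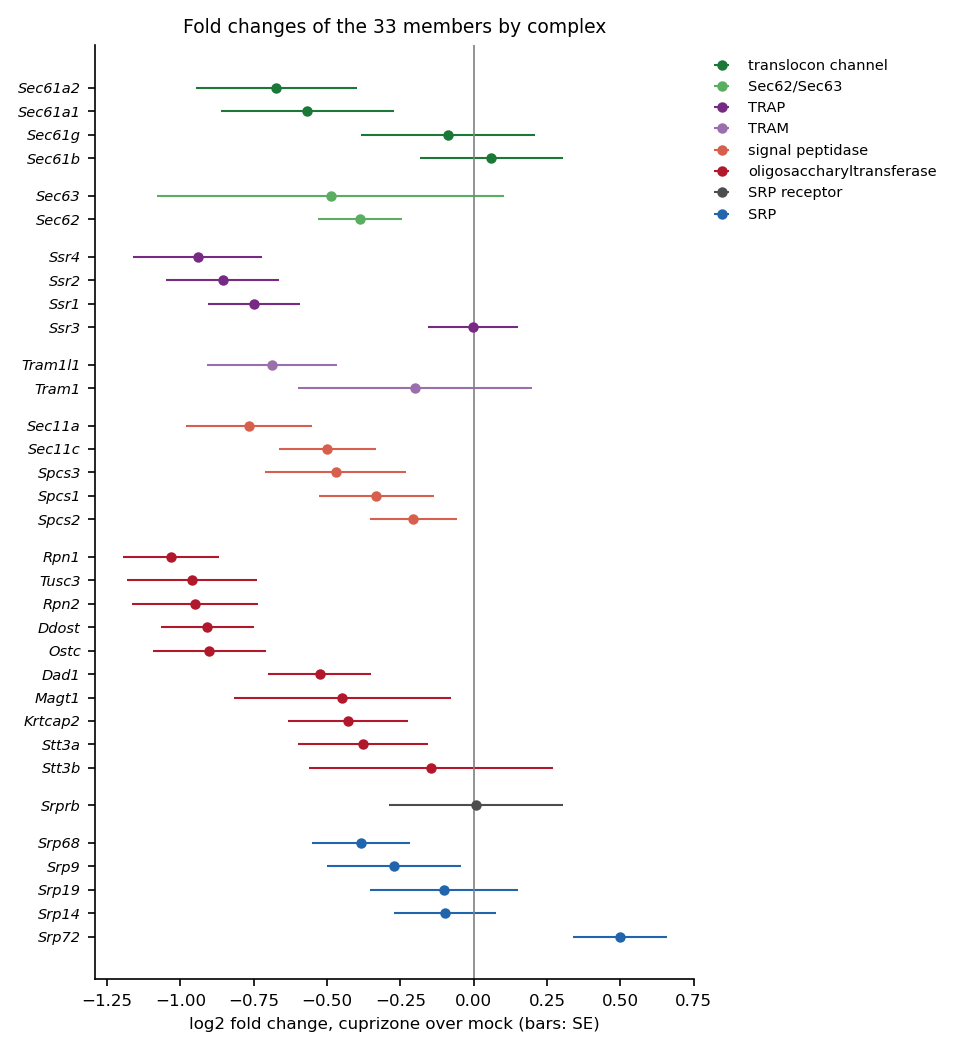
Log2 fold changes of the 33 members, cuprizone over mock, by complex; points are fitted values and bars are standard errors from 2 libraries a group. Most OST and TRAP genes lie far below 0, with Rpn1 lowest at -1.03, Ssr3 and Srprb sit at 0, and Srp72 stands at 0.50.

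The OST is built from a catalytic subunit, Stt3a or Stt3b, and a shell of shared and accessory subunits. The shell held the lowest folds. Rpn1, ribophorin I, which holds some membrane proteins near the catalytic site, had 94.2 and 90.0 CPM in cuprizone against 171 and 188 CPM in mock. Its log2 fold was -1.03 (SE 0.16), and its edgeR adjusted p of 0.122 ran from 0.0253 without a filter to 0.395 without mock replicate 2, with a DESeq2 adjusted p of 3.2e-05. Rpn2, ribophorin II, had 70.4 and 96.3 CPM in cuprizone against 163 and 144 CPM in mock. Ddost, a subunit that helps to hold the glycan donor, had 114 and 118 CPM in cuprizone against 218 and 197 CPM in mock. In each of these genes both cuprizone libraries lay clearly under both mock libraries. Ostc, a subunit that links Stt3a complexes to the translocon, had 45.3 and 45.7 CPM in cuprizone and 84.6 and 77.4 CPM in mock. The log2 folds were -0.95 for Rpn2 (SE 0.22), -0.91 for Ddost (SE 0.16) and -0.90 for Ostc (SE 0.19), with edgeR adjusted p of 0.192, 0.131 and 0.18.

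The catalytic subunits differed less. Stt3a, which glycosylates chains as they enter the ER, had 36.2 and 40.8 CPM in cuprizone against 47.2 and 48.0 CPM in mock, a log2 fold of -0.38 (SE 0.22). Stt3b, which also reaches sites that Stt3a has skipped, had 32.7 and 19.9 CPM in cuprizone and 18.9 and 36.4 CPM in mock. Its groups overlapped, and each group held a high and a low library. Dad1, a small subunit needed for the complex to be stable, had 166 and 136 CPM in cuprizone against 219 and 195 CPM in mock, a log2 fold of -0.53 (SE 0.17). Krtcap2, a subunit of the Stt3a complex, had 45.6 and 47.7 CPM in cuprizone against 63.4 and 56.4 CPM in mock, a log2 fold of -0.43 (SE 0.20). The groups did not overlap in Stt3a, Dad1 or Krtcap2.

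Tusc3 and Magt1 are alternative oxidoreductase subunits of the Stt3b complex. Tusc3 had 156 and 105 CPM in cuprizone against 225 and 257 CPM in mock, a log2 fold of -0.96 (SE 0.22) with an edgeR adjusted p of 0.197. Without cuprizone replicate 1 its log2 fold was -1.27 and the edgeR adjusted p 0.0494, past the threshold, and over the other edgeR settings that p reached 0.48; the DESeq2 adjusted p was 0.00144. Magt1 had 25.6 and 20.7 CPM in cuprizone and 20.9 and 39.3 CPM in mock, so its groups overlapped. The ratio of Tusc3 to Magt1, per kb of exon, was 8.27 and 6.90 in cuprizone and 14.7 and 8.91 in mock, so Tusc3 was the more abundant of the pair in every library. Summed over the 10 genes, the OST took 787 and 719 CPM in cuprizone against 1231 and 1239 CPM in mock.

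**Figure D2:**
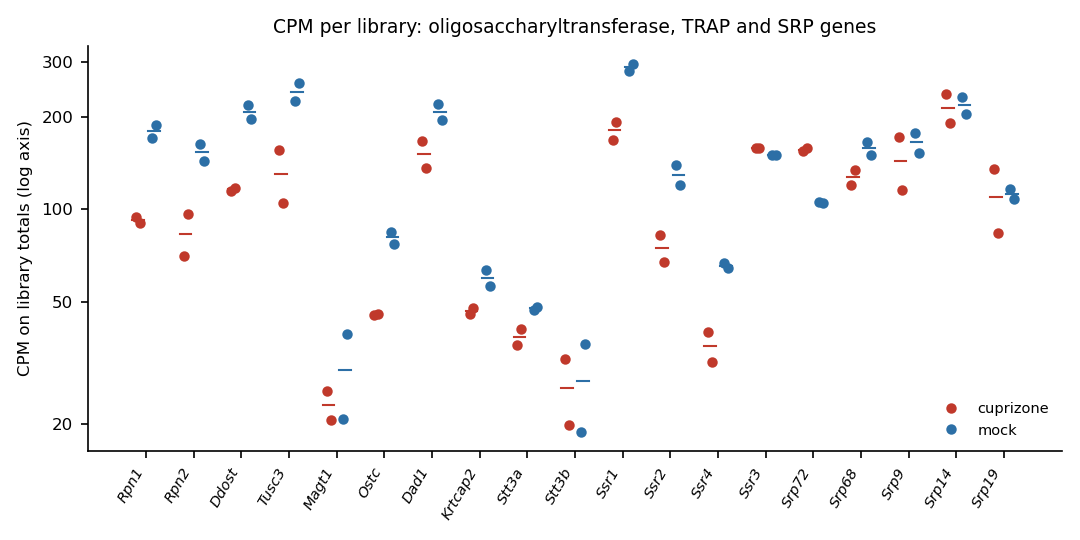
CPM on library totals (log axis) of OST, TRAP and SRP genes in each cuprizone and mock library; short lines are group means (n = 2 each). Rpn1 sits at 94.2 and 90.0 CPM in cuprizone against 171 and 188 CPM in mock, Ssr3 at 158 against 151 CPM, and Srp72 at 154 and 158 against 106 and 105 CPM.

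TRAP, which sits beside the channel and helps weak signal peptides to enter, has 4 subunits. Ssr1 had 168 and 193 CPM in cuprizone against 281 and 297 CPM in mock, Ssr2 82.5 and 67.5 CPM in cuprizone against 139 and 119.6 CPM in mock, and Ssr4 39.9 and 31.9 CPM in cuprizone against 66.7 and 64.6 CPM in mock. Their log2 folds were -0.75 (SE 0.16), -0.86 (SE 0.19) and -0.94 (SE 0.22), with edgeR adjusted p of 0.177, 0.192 and 0.197, and their groups did not overlap. Ssr3, the subunit that crosses the membrane several times, had 158 CPM in each cuprizone library and 151 CPM in each mock library. Its log2 fold was 0.00 (SE 0.15) with TMM scaling and 0.07 with library totals. The pulled-down RNA of the 4 subunits thus differed between groups by unequal amounts.

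The Sec61 channel is a trimer of an alpha subunit, which forms the pore, and the small beta and gamma subunits. Sec61a1, the main alpha subunit, had 26.3 and 42.9 CPM in cuprizone against 49.2 and 48.8 CPM in mock, and its log2 fold was -0.57 (SE 0.30). Leaving out cuprizone replicate 2 gave -0.98 and leaving out cuprizone replicate 1 gave -0.25, so the size rests on which of the 2 is kept. Sec61a2, the second alpha gene, had 18.7 and 18.2 CPM in cuprizone against 28.3 and 27.8 CPM in mock, a log2 fold of -0.67 (SE 0.27) with an edgeR adjusted p of 0.383. The CPM ratio of Sec61a2 to Sec61a1 was 0.711 and 0.423 in cuprizone and 0.575 and 0.569 in mock. Per kb of exon it was 1.05 and 0.623 in cuprizone and 0.847 and 0.839 in mock, so the cuprizone libraries differed in which gene stood higher. Exons of the neighbouring Nudt5, on the opposite strand, cover 19.9% of the exonic length of Sec61a2, and reads of the 2 genes cannot be told apart where the counting ignored strand. Sec61b, whose protein is anchored by its tail, had 70.4 and 53.6 CPM in cuprizone and 64.0 and 49.1 CPM in mock. Sec61g, also a small tail-anchored subunit, had 32.6 and 23.7 CPM in cuprizone and 31.7 and 25.2 CPM in mock. The groups of these small subunits overlapped, with replicate 1 above replicate 2 in either group.

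Sec62 and Sec63 assist chains that enter slowly or after synthesis, and Sec63 recruits the chaperone BiP. Sec62 had 249 and 262 CPM in cuprizone against 310.0 and 327 CPM in mock, with a log2 fold of -0.39 (SE 0.14; edgeR adjusted p = 0.334). Sec63 had 30.6 and 13.6 CPM in cuprizone and 15.0 and 43.9 CPM in mock; the spread within each group was larger than the difference. Tram1, which helps some signal peptides to leave the channel sideways, likewise overlapped, at 24.6 and 33.5 CPM in cuprizone and 20.9 and 42.9 CPM in mock. Its relative Tram1l1 had 32.2 and 35.2 CPM in cuprizone against 53.8 and 49.6 CPM in mock, with a log2 fold of -0.69 (SE 0.22; edgeR adjusted p = 0.287). In Sec63, Tram1, Stt3b and Magt1, mock replicate 2 stood well above mock replicate 1, and without mock replicate 2 all 4 had positive log2 folds, from 0.10 for Magt1 to 0.51 for Sec63.

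Signal peptidase carries its catalytic site in Sec11a or Sec11c, with Spcs1, Spcs2 and Spcs3 as partners. Sec11a had 35.8 and 36.2 CPM in cuprizone against 62.2 and 54.4 CPM in mock, a log2 fold of -0.77 (SE 0.22). Sec11c had 121 and 110.4 CPM in cuprizone against 164 and 148 CPM in mock, a log2 fold of -0.50 (SE 0.17), and the edgeR adjusted p values were 0.247 and 0.303. The CPM ratio of Sec11c to Sec11a was 3.38 and 3.05 in cuprizone and 2.63 and 2.72 in mock, higher in both cuprizone libraries. Per kb of exon it was 2.29 and 2.07 in cuprizone and 1.78 and 1.84 in mock. Spcs1, the most abundant membrane member per kb of exon, had 181 and 139 CPM in cuprizone and 209.6 and 175 CPM in mock. Spcs2 had a log2 fold of -0.21 (SE 0.15) and Spcs3 of -0.47 (SE 0.24). Spcs1 and Spcs3 overlapped between groups; Spcs2 did not.

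The SRP binds the signal peptide through Srp54 and is held together by the 5 other proteins on an RNA scaffold. Srp9 and Srp14, which form the domain that pauses elongation, had 172 and 115 CPM and 236 and 191 CPM in cuprizone, against 177 and 153 CPM and 232 and 204 CPM in mock. Srp19, which shapes the RNA for assembly, had 136 and 83.8 CPM in cuprizone and 116 and 108 CPM in mock. These 3 overlapped between groups, with log2 folds of -0.27 (SE 0.23), -0.10 (SE 0.17) and -0.10 (SE 0.25). Srp68 and Srp72 bind each other, and their log2 folds lay on opposite sides of 0. Srp68 had 120.3 and 134 CPM in cuprizone against 166 and 151 CPM in mock, a log2 fold of -0.38 (SE 0.17). Srp72 had 154 and 158 CPM in cuprizone against 106 and 105 CPM in mock, with a log2 fold of 0.50 (SE 0.16; edgeR adjusted p = 0.285). Srprb, the membrane anchor of the SRP receptor, had 38.2 and 40.2 CPM in cuprizone and 28.3 and 46.0 CPM in mock, and 20.7% of its exonic length is shared with a second annotated gene, Gm20425, on the same strand.

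Set side by side within each library, the membrane members stood lower relative to the SRP proteins in cuprizone. The mean log2(CPM + 0.5) of the 28 membrane members minus that of the 5 SRP proteins was taken as a score. It was -1.28 and -1.12 in cuprizone and -0.90 and -0.65 in mock, so the group ranges did not meet. For single genes, groups lay apart with cuprizone lower in 18.9% of all tested genes and with cuprizone higher in 25.7%. The group means of the score were -1.20 ± 0.11 in cuprizone and -0.78 ± 0.18 in mock (SD, n = 2 each), a difference of -0.42. With medians over members in place of means the difference was -0.31. Srp72, which stood higher in cuprizone, is part of the SRP side of this score. No p is given for this score, since the members were chosen with results known. The summed membrane members took 0.243% and 0.227% of counts in cuprizone against 0.326% and 0.329% in mock. The SRP proteins took 0.0819% and 0.0682% in cuprizone and 0.0797% and 0.0720% in mock, which overlap. Within this sum Srp72 had a mean of 156 CPM in cuprizone against 105 CPM in mock, while the mean of each other SRP protein was lower in cuprizone. The near-level sum thus rests in part on Srp72. The SRP median log2 fold of -0.10 was 0.036 without cuprizone replicate 2 and -0.30 without cuprizone replicate 1. The membrane median stayed between -0.62 and -0.46 when any 1 library was left out. Reads of the mitochondrial genome moved in the same direction as the membrane members, with 0.0033% and 0.0032% of counts in cuprizone against 0.0517% and 0.0503% in mock; the part of organelle carry-over in these folds was not tested.

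**Figure D3:**
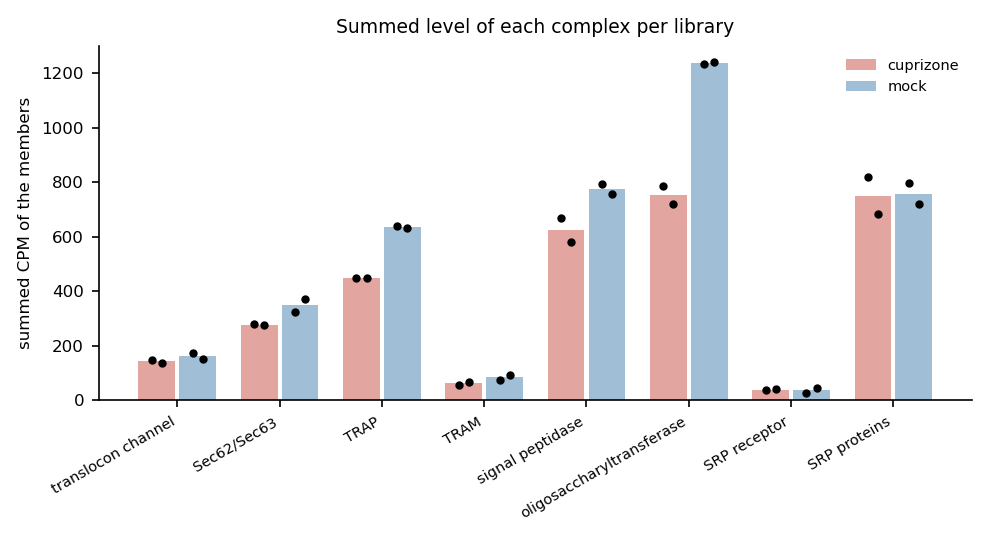
Summed CPM of the members of each complex; bars are group means and dots the 2 libraries of cuprizone and of mock. The OST sums to 787 and 719 CPM in cuprizone against 1231 and 1239 CPM in mock, while the SRP proteins sum to 819 and 682 CPM in cuprizone and 797 and 720 CPM in mock.

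Levels can be compared between genes only per length. Per kb of annotated exon, averaged over the 4 libraries, Srp14 stood highest at 181 CPM, followed by Spcs1 at 114, Ddost at 76.3 and Sec62 at 66.1 CPM. Sec63 stood lowest at 2.93 CPM, with Stt3a at 4.81, Sec61a2 at 5.08, Magt1 at 5.70, Sec61a1 at 6.21 and Stt3b at 6.39 CPM. The catalytic and pore-forming subunits were thus among the lowest of their complexes per kb. Sec61a1 and Stt3b, neighbours in this order, differed by less than their spread: Sec61a1 had 5.15 ± 1.74 CPM per kb in cuprizone and 7.28 ± 0.033 in mock, and Stt3b 6.22 ± 2.14 in cuprizone and 6.55 ± 2.95 in mock (SD, n = 2 each). Stt3a and Sec61a2 differed by more than their SDs in mock, with 4.30 ± 0.36 and 4.04 ± 0.086 CPM per kb in cuprizone and 5.32 ± 0.065 and 6.13 ± 0.070 in mock. Exon length here is the union over all annotated transcripts, so rarely used exons lower a gene's value. Neither coding length nor level ordered the folds: over the 33 members, which share libraries, Spearman's rho with the log2 fold was -0.20 for coding length and -0.072 for mean CPM.

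Most of the lowest members, 7 of the 9, are alike in how their own proteins enter the ER. From textbook knowledge, Ssr1, Ssr2, Ssr4, Rpn1, Rpn2, Ddost, Tusc3 and Magt1 are made with a signal peptide that is cleaved off, while the other 20 membrane members are held by uncleaved membrane spans or a tail anchor. This grouping was chosen after the values had been seen, so it carries no test. The 8 with a cleaved signal peptide had a median log2 fold of -0.92, all 8 negative, 7 of them lower at an unadjusted p under 0.05 (7.04% of all genes and 11.2% of the abundant ones) and 7 called lower by DESeq2 (2.85% and 5.39%). The other 20 membrane members had a median of -0.41, with 7 at an unadjusted p under 0.05 and 1, Ostc, called by DESeq2. All 8 belong to the OST or TRAP, so among the members the signal peptide and the complex cannot be fully told apart. Within TRAP, whose other subunits are already counted among the 8, Ssr3 is the subunit without a cleaved signal peptide. It does not hold throughout: Ostc and Sec11a, without a cleaved signal peptide, had log2 folds of -0.90 and -0.77, and Magt1, with one, had groups that overlapped.

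Other genes of the pathway had medians in the same order. They were read from the same libraries with the same grouping, chosen after values were seen, so they are not independent support. Genes with a cleaved signal peptide outside the pathway were not examined. The list holds 73 genes, of which 71 were tested; Srp54b and Tram2 fell under the filter, and Srp54a, Srp54b and Srp54c are near-identical copies whose counts are uncertain. EdgeR called 0 of the 71; 16 were lower and 0 higher at an unadjusted p under 0.05, DESeq2 called 8 lower and limma-voom 0. Over all genes, 7.04% were lower at that unadjusted p and DESeq2 called 2.85% lower, or 11.2% and 5.39% of the abundant ones. The list's median log2 fold was -0.26. It was -0.25 for the 10 genes of the ER membrane protein complex, -0.35 for 6 genes of the multipass translocon, -0.43 for 23 genes that build the lipid-linked glycan, -0.72 for 8 genes of glycan trimming and quality control, and 0.10 for 7 genes that insert tail-anchored proteins. The 16 genes of the list with a cleaved signal peptide had a median of -0.75, and 11 of them were lower at an unadjusted p under 0.05. The median was -0.40 for 30 tested membrane proteins without one, and 0.10 for 15 tested cytosolic or peripheral proteins. Within the group with a cleaved signal peptide, Emc10, Ncln, Mlec and Hyou1 overlapped between cuprizone and mock, with log2 folds of -0.17, -0.11, -0.21 and 0.28, so the feature did not go with a low fold in every gene.

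By the lowest unadjusted p, the genes of this list that stood out were Ccdc47, Emc1, Canx, Emc7, Nomo1 and Calr, all with cleaved signal peptides. Ccdc47 and Nomo1, of the multipass translocon, had 88.3 and 85.5 CPM and 24.8 and 28.1 CPM in cuprizone, against 171 and 195 CPM and 52.1 and 59.4 CPM in mock. Emc1 had 35.0 and 30.3 CPM in cuprizone against 79.2 and 77.8 CPM in mock, the lowest log2 fold of the 6 at -1.33 (SE 0.20), and Emc7 had 137 and 112 CPM in cuprizone against 235 and 243 CPM in mock. Ccdc47, Nomo1 and Emc7 had log2 folds of -1.15 (SE 0.17), -1.14 (SE 0.23) and -1.01 (SE 0.17). Canx and Calr, the lectin chaperones that hold freshly glycosylated proteins, had log2 folds of -0.99 (SE 0.16) and -0.86 (SE 0.21). Canx had 394 and 344 CPM in cuprizone against 631 and 768 CPM in mock, and Calr 230 and 158 CPM against 348 and 322 CPM. The edgeR adjusted p of the 6 ran from 0.108 for Ccdc47 to 0.20 for Calr, and DESeq2 called all 6. Of 7 transcription factors known to act on secretory genes, edgeR called 0 and 0 had an unadjusted p under 0.05. Over all genes edgeR called 0.0822%, and 7.04% were lower and 5.73% higher at that unadjusted p, so 0 of 7 says little. DESeq2 and limma-voom called 0 as well, against 2.85% and 0.24% of all genes lower and 1.67% and 0.0569% higher. The median log2 fold was 0.07, in a range from -1.26 for Creb3l1 to 0.53 for Creb3l2. Xbp1, the factor of the unfolded protein response that drives many ER genes, had 224 and 225 CPM in cuprizone against 177 and 186 CPM in mock, a log2 fold of 0.24 (SE 0.15).

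**Figure D4:**
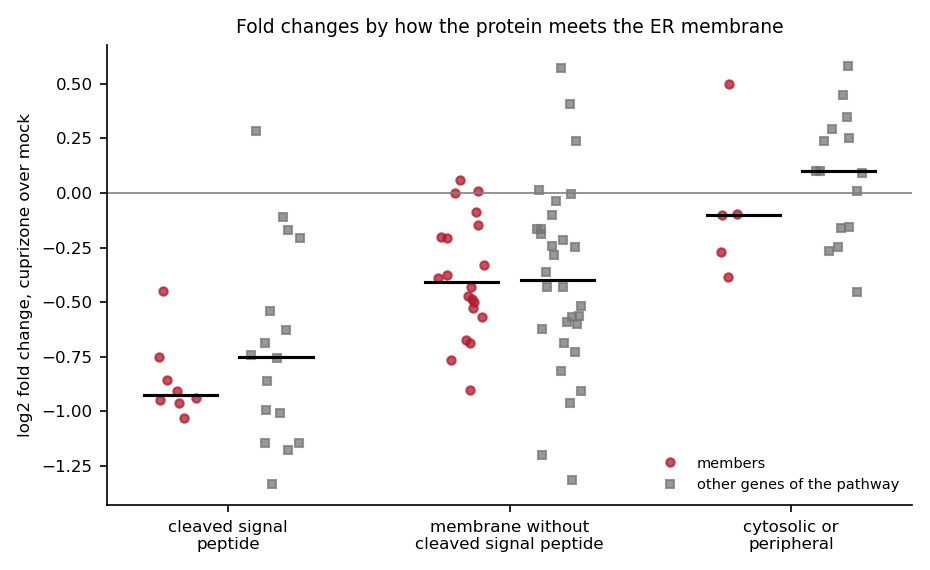
Log2 fold changes, cuprizone over mock, of the members (red) and of the other tested genes of the pathway (grey) by how their proteins relate to the ER membrane; each point is a gene and black lines are medians. Members with a cleaved signal peptide have a median of -0.92, membrane members without one -0.41, and SRP proteins -0.10.

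The promoters of the members were searched for motifs of the factors ATF6 and XBP1. RefSeq windows on GRCm38.p6, from 250 bases before to 50 after a start site, were matched for 24 of the 33 members. Shares over all genes take in every gene with a window, expressed or not, and were not matched for level. Both strands were searched for the ER stress response element, its second form ERSE-II and GCCACGT (the core of the XBP1 element); no match overlapped another. The first was in 0 of 24 members and 0.137% of all genes with a window, the second in 1 (Krtcap2), 4.17% of members against 0.0444% of all genes, and the third in 5 (Ssr1, Ssr3, Sec63, Srprb and Spcs1), 20.8% of members against 2.95% of all genes. The matched stretches are shown because GCCACGT was held by a larger share of members than of all genes, among them members with folds near 0; capitals mark the motif, and all are written 5′ to 3′ on the gene's strand.
Ssr1, 74 bases before the start, chr13:37994267-37994291, minus strand: ccaccgccgGCCACGTgatctcccg
Ssr1, 27 bases before the start, chr13:37994220-37994244, minus strand: cgcttagagGCCACGTcgacggtgg
Ssr3, 191 bases before the start, chr3:65392729-65392753, minus strand: cattgaggcGCCACGTaccctgaag
Sec63, 23 bases before the start, chr10:42761464-42761488, plus strand: gctgcgcgcGCCACGTctccctcag
Srprb, 37 bases before the start, chr9:103202087-103202111, minus strand: gagcctagaGCCACGTaactttggc
Spcs1, 61 bases before the start, chr14:31001712-31001736, minus strand: tctgcagcaGCCACGTagggccaca
Krtcap2, 17 bases after the start, chr3:89246481-89246509, plus strand: gggacacggATTGGACCACGgacggggcg

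Ssr1 carries 2 of these matches close to its start, and the whole stretch of 250 bases before the start (chr13:37994209-37994458, minus strand) shows their spacing.
Ssr1: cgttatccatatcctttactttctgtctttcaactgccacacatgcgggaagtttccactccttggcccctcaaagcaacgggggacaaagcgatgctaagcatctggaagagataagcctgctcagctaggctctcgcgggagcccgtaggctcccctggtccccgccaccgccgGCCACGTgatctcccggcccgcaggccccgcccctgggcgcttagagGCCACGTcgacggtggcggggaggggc
Of the 5 genes with GCCACGT, Ssr1 had a log2 fold of -0.75, Sec63 -0.49, Spcs1 -0.33, Ssr3 0.00 and Srprb 0.01, so the folds of genes with the match ran from low to near 0. These are matches of letters, not measured binding sites.

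On GRCm38, Rpn1 (ENSMUSG00000030062) lies at 88084482 to 88105304 on chromosome 6, and Sec61a1 (ENSMUSG00000030082) at 88503579 to 88518905 on the same chromosome. Ddost (ENSMUSG00000028757) lies at 138304730 to 138312628 on chromosome 4, Ssr1 (ENSMUSG00000021427) at 37966605 to 37994217 on chromosome 13, Tusc3 (ENSMUSG00000039530) at 39005845 to 39165114 on chromosome 8 and Srp72 (ENSMUSG00000036323) at 76974683 to 76999937 on chromosome 5. All members are annotated as protein coding, and counts are for whole genes, without separating exons, introns or untranslated regions. In 13 of the 33, some exons overlap those of another annotated gene, over at most 20.7% of their length.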

How the data were processed

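The authors deposited raw counts per Ensembl gene, 1 table per library. Per the submitters' processing notes, FastQC 0.11.9, STAR 2.5.4b and featureCounts 1.6.0 were used with GRCm38 (mm10); not given in the sources used here: annotation release, strand setting, handling of reads with several alignments. Per the extraction protocol, RNA with an integrity number above 8 was used. Per the labels, it went into polyadenylated, low-input libraries.

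Symbols were matched for 55144 of 55471 ids. Coordinates and lengths come from GENCODE M21 (GRCm38). CPM values use library totals. The test was edgeR 4.0.16 under R 4.3.3 (genes kept by filterByExpr, TMM factors of 0.974 to 1.031, robust glmQLFit in its default way, glmQLFTest, 2-sided, Benjamini-Hochberg over 15816 genes, threshold 0.05); folds are cuprizone over mock, and the SE is the log2 fold over the square root of F. The scripts were tested on simulated data. The pairs of libraries differed by more than sampling noise. Alternatives were RLE and library-size scaling, 2 other filters, bias-adjusted dispersions, DESeq2 1.42.0, limma-voom (limma 3.58.1), a replicate block and leaving out each library.

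Members and lists were chosen with earlier results of these data known. CPM per library is given for members at an unadjusted p under 0.05, all SRP proteins, paralog pairs and the most abundant member of each complex. It is also given for the 6 other pathway genes of lowest p. Xbp1, Emc10, Ncln, Mlec, Hyou1 and the signal peptide grouping were singled out after their values were seen.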

Additional observations from a re-analysis of the deposited data

How the results depend on the processing

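The count of 13 genes called over all genes was 191 without a filter, 68 with a filter at mean CPM 1, 51 with bias-adjusted dispersions, 715 with DESeq2, 47 with limma-voom and 5 to 123 when 1 library was left out. For the members it was 0, against 2 without a filter (Rpn1 and Ddost), 8 with DESeq2 and 0 to 1 with 1 library left out; for the other pathway genes it was 0, against 4, 8 and 0 to 1 in the same order, and 1 with the filter at mean CPM 1. The cause was not tested. With 1 library left out, the membrane median ran from -0.62 to -0.46, the SRP median from -0.30 to 0.036 and the membrane minus SRP difference from -0.55 to -0.30. The medians by signal peptide, an alternative added after seeing the data, pooled the members with the other pathway genes. With all libraries they were -0.86 over 24 genes with a cleaved one, -0.41 over 50 other membrane proteins and 0.05 over 20 cytosolic ones. Leaving out 1 library, these pooled medians ran from -0.89 to -0.72, -0.45 to -0.33 and -0.07 to 0.05 in the same order. The replicate block called 10 genes and 0 members, with a membrane median of -0.49; same-numbered libraries deviated together with a correlation of -0.012, so the numbers are not taken as pairs.

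Of 396 alternative values for the members, 365 kept their sign and side of the threshold, 11 in 8 members passed it and 20 in 10 members changed sign. No member at all was past the threshold in the fit reported. Ssr3 stood at 0.0031 with RLE scaling and with DESeq2, 0.068 with library-size scaling and 0.00098 without a filter. With 1 library left out, Ssr3 ran from -0.012 to 0.021, Sec61b from -0.14 to 0.27, Sec61g from -0.33 to 0.11, Sec63 from -1.18 to 0.51, Tram1 from -0.63 to 0.43, Stt3b from -0.54 to 0.43, Magt1 from -0.83 to 0.10, Srprb from -0.30 to 0.42, Srp14 from -0.25 to 0.036 and Srp19 from -0.48 to 0.20. With 1 library in a group, that library is assumed to vary like the others. With 2 libraries a group, the SE of the SRP proteins' log2 folds was 0.16 to 0.25.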
